A study of Homo sapiens with 12 samples.

Results

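The ISG15 conjugation system was followed through 6 genes of the 58051 in the deposited count table: ISG15 and the enzymes that activate, conjugate, ligate and remove it, UBA7, UBE2L6, HERC5, HERC6 and USP18. They were chosen by their known roles, by Ensembl identifier, and all 6 passed the low-count filter that left 17119 genes for testing. The cells were THP-1, a human monocytic leukaemia line that takes on a macrophage-like state under the phorbol ester PMA. Every culture, controls included, had received 20 ng/ml PMA for 24 h, followed by a medium change. Recombinant human IFN-γ, the type II interferon, was added the next day to some of them, at a dose and for a time that the labels do not give. The 4 groups of 3 libraries were wild type (WT) and SDC3-KO cells, each without and with IFN-γ. SDC3 encodes syndecan-3, a heparan sulphate proteoglycan of the cell surface. Whether the knockout was 1 clone or several is not given in the sources used here, and the labels do not tell whether libraries within a group were grown separately, so the p-values rest on a spread between libraries that may be technical.

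ISG15 is a small protein built of tandem ubiquitin-like domains, made in quantity by cells exposed to interferon. It is joined to target proteins by a cascade that parallels that of ubiquitin: the E1 enzyme UBA7 activates it, the E2 enzyme UBE2L6 carries it, and the E3 ligase HERC5 passes it to targets, many of them newly made proteins. HERC6 is the closest relative of HERC5, and in mice, which lack HERC5, it is the main ISG15 ligase. USP18 is the protease that takes ISG15 off its targets, and apart from this activity it binds the type I interferon receptor and damps its signalling. All are textbook targets of the type I interferon pathway, in which a complex with STAT2 and IRF9 binds an interferon-stimulated response element (ISRE). IFN-γ acts mainly through gamma-activated sites (GAS) and through IRF1, whose binding sites resemble the ISRE. Only transcripts were measured, not ISG15 conjugates or enzyme activity.

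The libraries held 23616738 to 29426415 assigned counts. Levels are given below as CPM (counts scaled to library size) after TMM scaling, which adjusts for differences in library composition, and 3 counts corresponded to 0.0924 to 0.130 CPM. SDC3 itself was lower in the knockout, at 43.9 to 49.9 CPM against 196 to 252 without IFN-γ and at 237 to 244 against 572 to 590 with it, so its transcript was reduced but not absent. Of 7 myeloid markers, CD14, CD33, SPI1, ITGAM, CSF1R and LYZ were at 39.3 CPM or more in every library and CD68, which shares 81.7% of its exon bases with another annotated gene, at no more than 17 counts. The summed myeloid markers ranged from 3664 to 3770 CPM in untreated wild type, 3420 to 3558 in untreated knockout, 3952 to 4154 in treated wild type and 3611 to 3809 in treated knockout. T-cell markers did not exceed 4 counts, MS4A1 had 0 counts, and the sums of the B-cell and epithelial markers stayed under 4 CPM in each library. The myeloid sum was lower in the knockout in both conditions, but its markers did not all move that way. Mean LYZ in knockout against wild type was 895 against 1294 CPM without IFN-γ and 230 against 533 CPM with it. CSF1R had higher means in the knockout, at 1438 against 1250 CPM and 1863 against 1787 CPM. CD14 was higher there only without IFN-γ, at 390 against 322 CPM. CD33, ITGAM and CD68, the last on 2 to 17 counts, had lower means in both conditions. SPI1 was nearly equal, at 245.7 against 249.3 CPM without IFN-γ and 354.2 against 355.5 CPM with it. The part of the myeloid markers in the results below was not tested.

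The stretches upstream of the RefSeq start sites (GRCh38.p14) are shown for 3 members, because ISG15 and HERC5 carry ISRE-like matches there and HERC6, the neighbour of HERC5 on chromosome 4, carries none. Each is the 250 bases before the start, 5′ to 3′ on the strand of the gene, and capitals mark matches to the ISRE core GAAANNGAAA on either strand. The windows are chr1:1013247-1013496, chr4:88456869-88457118 and chr4:88378602-88378851, all on the + strand.
ISG15: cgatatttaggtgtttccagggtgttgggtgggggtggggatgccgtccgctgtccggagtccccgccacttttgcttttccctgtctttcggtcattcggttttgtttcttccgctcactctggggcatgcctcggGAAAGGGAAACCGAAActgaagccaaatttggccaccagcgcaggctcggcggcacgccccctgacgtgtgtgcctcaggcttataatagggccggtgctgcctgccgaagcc
HERC5: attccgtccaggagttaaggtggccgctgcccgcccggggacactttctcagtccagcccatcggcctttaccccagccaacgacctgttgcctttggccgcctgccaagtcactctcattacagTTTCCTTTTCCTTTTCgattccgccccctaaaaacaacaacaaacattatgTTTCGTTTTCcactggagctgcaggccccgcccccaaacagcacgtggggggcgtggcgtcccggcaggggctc
HERC6: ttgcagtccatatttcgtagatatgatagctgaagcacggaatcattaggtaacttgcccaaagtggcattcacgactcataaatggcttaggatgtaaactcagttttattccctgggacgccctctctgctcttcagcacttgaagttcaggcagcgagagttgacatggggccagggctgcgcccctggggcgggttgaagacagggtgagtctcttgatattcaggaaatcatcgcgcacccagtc
ISG15 held 2 overlapping matches, GAAAGGGAAA and GAAACCGAAA, whose first bases lay 113 and 107 bases before the start. HERC5 held 3 matches, all on the opposite strand and therefore printed in reverse complement: TTTCCTTTTC at 125 and again, overlapping it, at 119 bases before the start, and TTTCGTTTTC at 74. RefSeq windows of 300 bases, 250 before and 50 after a start, were found for 4 of the 6 members, 5 windows in all, since UBE2L6 has 2. Neither UBE2L6 window held the ISRE core, and none of the 5 held the GAS letters TTCNNNGAA. Among all 35116 windows of that length in the table, 3.57% held the ISRE core and 7.66% the GAS letters. UBA7 and USP18 were not matched. In the counted annotation HERC6 starts at 88378739, inside its window. There UBE2L6, on the − strand, starts at 57568284 and ISG15 at 1001138, both upstream of their windows. Windows placed at those starts were not searched, so the presence or absence of a match holds for the RefSeq starts only. A match of letters is a description and does not show binding.

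All 6 genes rose with IFN-γ in wild-type cells, where 28.6% of the 17119 tested genes were called higher and 27.9% lower. A gene was called when its adjusted p (edgeR's quasi-likelihood test with Benjamini-Hochberg adjustment over all tested genes) was under 0.05. All 6 also rose in the knockout, where 29.2% of tested genes were called higher and 31.8% lower, although the small rise of UBA7 there depended on the scaling, as given below. Between genotypes with IFN-γ, 5 members were higher in the knockout and UBA7 was slightly lower, against 22.9% of tested genes called higher and 24.3% called lower. Without IFN-γ, 4 members were higher in the knockout, none was lower, and UBE2L6 and HERC5 did not pass the test, against 25.4% and 24.8% of tested genes. The median log2 fold change of the 6 members was 0.75 with IFN-γ and 0.34 without it, while the medians over all tested genes were -0.01 and 0.01. Scaled by library totals alone, the knockout with IFN-γ had 2887 higher and 5213 lower of all tested genes, in place of 3919 and 4153. The same scaling gave 2767 higher and 8260 lower in the wild-type response (4896 and 4770 with TMM), 2787 and 9141 in the knockout response (5005 and 5451) and 1000 and 1855 in the difference of responses (1302 and 1345). In these bulk libraries, more cells of a kind and more RNA per cell cannot be told apart.

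**Figure D1:**
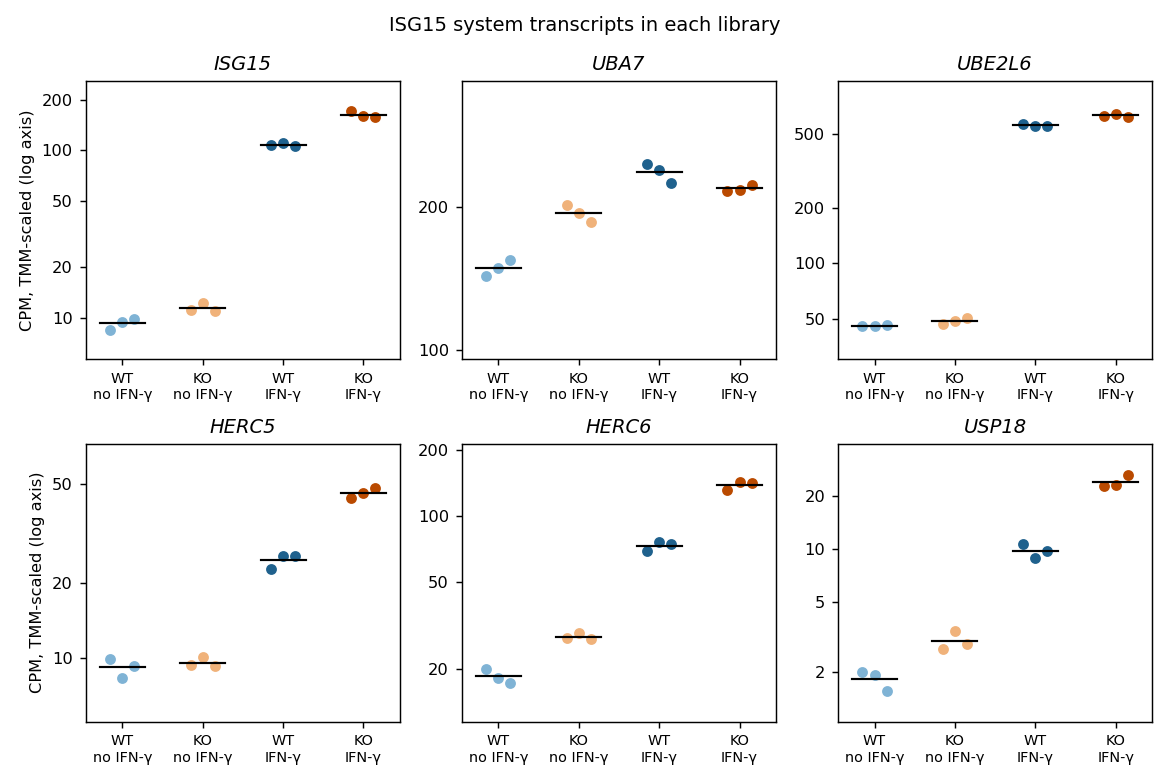
Level of each of the 6 transcripts in CPM after TMM scaling (log axis, with its own range for each gene) in the 12 libraries; points are libraries, bars are means of 3. With IFN-γ the knockout points of ISG15, UBE2L6, HERC5, HERC6 and USP18 lie above all wild-type points, and those of UBA7 lie just below.

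ISG15, the modifier (ENSG00000187608), is annotated in the file on chromosome 1, + strand, from 1001138 to 1014541, with 942 exon bases. Untreated, the 3 wild-type libraries held 8.53, 9.40 and 9.92 CPM and the 3 knockout libraries 11.2, 12.3 and 11.03 CPM. With IFN-γ it reached 107.1, 110.6 and 105.8 CPM in wild type and 172, 160 and 157 CPM in the knockout. All 4 groups stood apart from one another, in the order untreated wild type, untreated knockout, treated wild type, treated knockout. The log2 rise with IFN-γ was 3.53 (SE 0.06, adjusted p = 4.9e-30) in wild type, a fold of 11.6, and 3.82 (SE 0.06, adjusted p = 1.5e-31) in the knockout, a fold of 14.2. The knockout exceeded wild type by 0.31 (SE 0.08, adjusted p = 0.0013) on the log2 scale without IFN-γ and by 0.60 (SE 0.05, adjusted p = 1.1e-11) with it. An antisense gene shares 3.82% of the exon bases of ISG15 and had 0 counts in every library.

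UBA7 (ENSG00000182179), the E1 enzyme, lies on chromosome 3, − strand, from 49805207 to 49813946, with 4545 exon bases. It was the member with the smallest IFN-γ responses and the only member whose genotype difference had opposite signs without and with IFN-γ. Untreated wild-type libraries had 143.3, 149 and 155 CPM and untreated knockout libraries 202, 195 and 186 CPM, with no overlap. With IFN-γ the wild type had 246, 240 and 225 CPM and the knockout 217, 218 and 223 CPM, so that the treated groups were separated by only 2.2 CPM. Untreated, the log2 fold change of knockout over wild type was 0.38 (adjusted p = 8.1e-09, SE 0.04). Treated, it was lower, with a log2 fold change of -0.11 (SE 0.04, adjusted p = 0.03), or -0.19 (adjusted p = 4.5e-04) by library totals alone. This last call was lost with DESeq2 (adjusted p = 0.06), with RLE size factors (0.059), without the low-count filter (0.057), and, in edgeR's quasi-likelihood test, without treated knockout library 1 (0.091) or 2 (0.21) or treated wild-type library 1 (0.16) or 2 (0.093). In wild type UBA7 rose with IFN-γ by a log2 fold change of 0.67 (adjusted p = 9.1e-15, SE 0.04), or 0.42 (adjusted p = 1.3e-09) by library totals alone. In the knockout its log2 fold change was 0.17 (SE 0.04, adjusted p = 8.6e-04), 0.06 (adjusted p = 0.27) with upper-quartile scaling, and -0.12 (adjusted p = 0.014) by library totals alone. Scaling by library totals alone moved the median gene by -0.25 in the wild-type response and by -0.30 in the knockout response.

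UBE2L6 (ENSG00000156587), the E2 enzyme, lies on chromosome 11, − strand, from 57551656 to 57568284, with 2197 exon bases. It had the steepest response of the 6 in wild type, and the genotypes differed little. Untreated levels were 46.0, 45.5 and 46.3 CPM in wild type and 47.1, 48.9 and 50.5 CPM in the knockout. With IFN-γ they were 563, 553 and 550.1 CPM in wild type and 628, 644 and 620.1 CPM in the knockout. The knockout libraries were the higher ones in both conditions, but without IFN-γ the lowest of them exceeded the highest wild-type library by only 0.80 CPM. The untreated difference of 0.09 (SE 0.04, adjusted p = 0.088) on the log2 scale did not pass the test, except without untreated knockout library 1 (0.12, adjusted p = 0.049). With IFN-γ the difference was 0.18 (SE 0.04, adjusted p = 9.1e-05), and 0.10 (adjusted p = 0.019) by library totals alone. The log2 responses were 3.60 (SE 0.04, adjusted p = 2.9e-35) in wild type and 3.69 (SE 0.04, adjusted p = 9.8e-36) in the knockout, folds of 12.1 and 12.9.

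HERC5 (ENSG00000138646), the main human ISG15 ligase, and HERC6 (ENSG00000138642) lie beside each other on the + strand of chromosome 4. HERC6 runs from 88378739 to 88443111 with 5793 exon bases, and HERC5 from 88457117 to 88506163 with 4766. The untreated level of HERC5 did not differ between genotypes beyond the spread of the libraries, whereas HERC6 was higher in the knockout before treatment. Untreated, HERC5 stood at 9.94, 8.32 and 9.25 CPM in wild type and at 9.35, 10.1 and 9.32 CPM in the knockout. These 2 groups overlapped, and the log2 difference was 0.07 (SE 0.09, adjusted p = 0.57). With IFN-γ, HERC5 stood at 22.8, 25.7 and 25.8 CPM in wild type and at 43.9, 46.3 and 48.5 CPM in the knockout. Every treated knockout library exceeded every treated wild-type library, by a log2 difference of 0.90 (SE 0.08, adjusted p = 8.8e-12), a fold of 1.87. The response of HERC5 was 1.44 (SE 0.09, adjusted p = 6.3e-16) in wild type and 2.27 (SE 0.08, adjusted p = 7.2e-22) in the knockout on the log2 scale.

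HERC6 stood at 20.1, 18.3 and 17.3 CPM in untreated wild type and at 27.7, 29.2 and 27.5 CPM in untreated knockout. With IFN-γ it stood at 69.1, 76.2 and 74.0 CPM in wild type and at 131, 142 and 141 CPM in the knockout. The 4 groups did not overlap. The knockout was higher by 0.60 (SE 0.07, adjusted p = 2.5e-09) without IFN-γ and by 0.91 (SE 0.05, adjusted p = 2.9e-15) with it, on the log2 scale. The log2 response was 1.98 (SE 0.06, adjusted p = 2.1e-23) in wild type and 2.29 (SE 0.06, adjusted p = 4.4e-26) in the knockout. With IFN-γ the difference between genotypes was thus nearly equal for both neighbouring HERC genes, 0.90 and 0.91.

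USP18 (ENSG00000184979), the protease, lies on chromosome 22, + strand, from 18149899 to 18177397, with 2129 exon bases. It had the lowest CPM of the 6 transcripts in every group, not corrected for length, and the largest difference between genotypes with IFN-γ. Untreated wild-type libraries had 2.02, 1.94 and 1.57 CPM (47 to 63 counts) and untreated knockout libraries 2.698, 3.41 and 2.90 CPM (75 to 107 counts). With IFN-γ the wild type had 10.7, 8.89 and 9.73 CPM and the knockout 22.6, 23.1 and 26.2 CPM. No 2 groups overlapped. The knockout was higher by 0.71 (SE 0.16, adjusted p = 3.8e-04) without IFN-γ and by 1.30 (SE 0.10, adjusted p = 3.8e-12) with it, the latter a fold of 2.46. The response was 2.40 (SE 0.14, adjusted p = 3.2e-16) in wild type and 2.99 (SE 0.12, adjusted p = 1.1e-20) in the knockout, on the log2 scale. USP41 is a near-identical copy of USP18 on the same chromosome, so reads could be split between them. It had 11 to 17 counts in untreated wild type, 9 to 11 in untreated knockout, 1 to 5 in treated wild type and 0 to 2 in treated knockout. It was called lower with IFN-γ in both genotypes (adjusted p = 0.011 in wild type and 0.0012 in the knockout), the opposite direction to USP18. No call of USP18 changed when the counts of both genes were summed, but its untreated difference between genotypes was then 0.52 on the log2 scale, below that of HERC6.

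**Figure D2:**
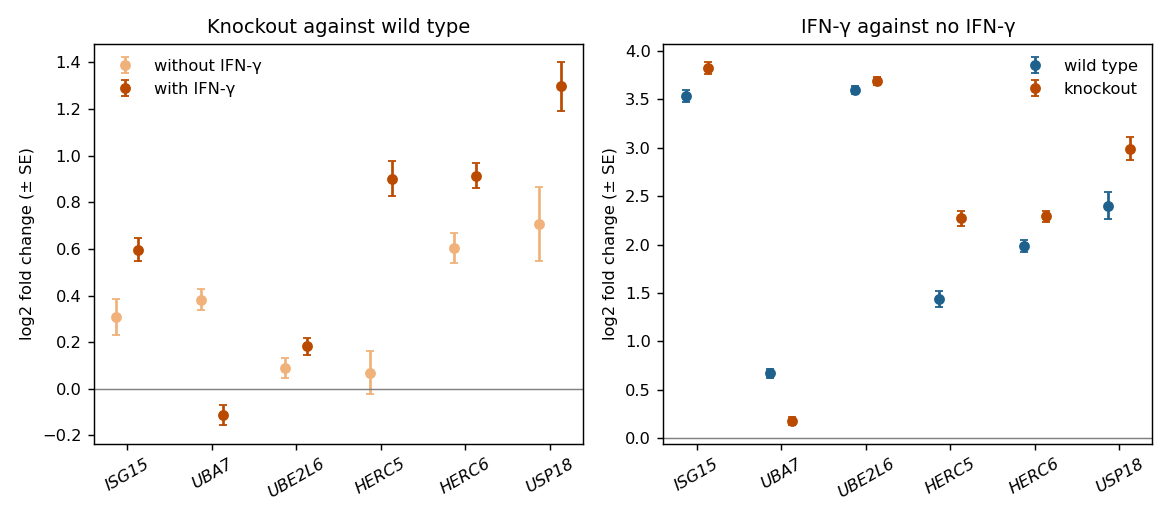
Log2 fold changes of the 6 members with standard errors (edgeR, 3 libraries a group): left, knockout against wild type without and with IFN-γ; right, IFN-γ against no IFN-γ in each genotype. Differences between genotypes with IFN-γ run from -0.11 for UBA7 to 1.30 for USP18.

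The responses of 5 of the 6 members differed between genotypes, measured as the log2 response in the knockout minus that in wild type. Over all tested genes, 7.61% were called higher and 7.86% lower in this test. HERC5 showed the largest difference, 0.83 (SE 0.12, adjusted p = 3.4e-06), followed by USP18 at 0.59 (SE 0.19, adjusted p = 0.034). HERC6 was at 0.31 (SE 0.09, adjusted p = 0.0092) and ISG15 at 0.29 (SE 0.09, adjusted p = 0.029), so 4 members responded more in the knockout. UBA7 responded less, at -0.50 (SE 0.06, adjusted p = 3.1e-07). UBE2L6 did not pass the test, at 0.09 (SE 0.06, adjusted p = 0.31). The median was 0.30 over the members and -0.03 over all tested genes. The calls for ISG15 and USP18 lay close to the threshold. By limma-voom they had adjusted p-values of 0.082 and 0.084, and by library totals alone 0.074 and 0.054. ISG15 also lost the call, in edgeR's quasi-likelihood test, without treated knockout library 1, untreated knockout library 1 or 3, treated wild-type library 1 or 3, or untreated wild-type library 2 or 3 (adjusted p 0.051 to 0.13). USP18 lost it without treated knockout library 3, untreated knockout library 1 or 3, treated wild-type library 2, or untreated wild-type library 1 or 2 (adjusted p 0.069 to 0.095). The calls for HERC5, HERC6 and UBA7 held without any 1 library.

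**Figure D3:**
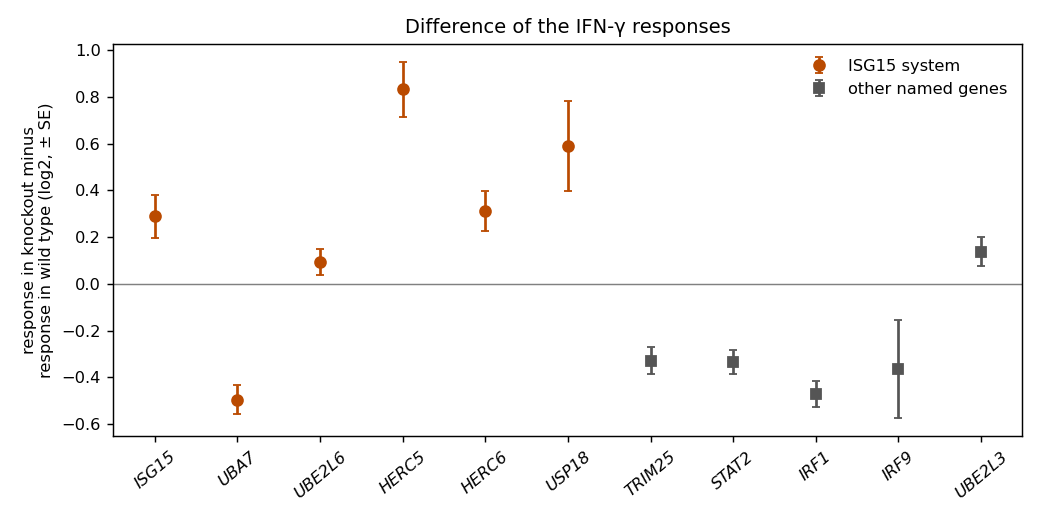
Difference of the IFN-γ responses (knockout minus wild type, log2, with standard errors) for the 6 members, as circles, and for 5 other genes, as squares. These are genes of interferon signalling or ISG15 conjugation, and UBE2L3, a ubiquitin E2 enzyme. HERC5 stands highest at 0.83 and UBA7 lowest at -0.50. TRIM25, STAT2, IRF1 and IRF9 lie below 0 and UBE2L3 above it.

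Per exon length, the order of the members differed between untreated and treated cells. In untreated wild type the levels were 32.8 ± 1.27 CPM per kilobase of exon for UBA7, 20.9 ± 0.19 for UBE2L6, 9.85 ± 0.75 for ISG15, 3.20 ± 0.25 for HERC6, 1.92 ± 0.17 for HERC5 and 0.867 ± 0.111 for USP18 (mean ± SD, n = 3). In treated wild type UBE2L6 came first at 253 ± 3.14, followed by ISG15 at 114.5 ± 2.59 and UBA7 at 52.2 ± 2.36 CPM per kilobase. The ligase and protease transcripts stayed well below, at 12.6 ± 0.63 for HERC6, 5.20 ± 0.36 for HERC5 and 4.58 ± 0.42 for USP18, and the libraries of these last members overlapped. In treated knockout the order was UBE2L6 at 287 ± 5.51, ISG15 at 173 ± 8.67, UBA7 at 48.2 ± 0.76, HERC6 at 23.8 ± 1.08, USP18 at 11.3 ± 0.94 and HERC5 at 9.71 ± 0.48 CPM per kilobase. There USP18 lay above HERC5 in all libraries, the reverse of the order of their means in treated wild type.

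The make-up of the system as a whole changed with IFN-γ in both genotypes. The summed level of the 6 transcripts rose from 69.6 ± 1.68 to 442 ± 5.93 CPM per kilobase of exon in wild type and from 85.5 ± 1.64 to 553 ± 7.27 in the knockout (mean ± SD, n = 3). Untreated, UBA7 had the largest share, 47.1% ± 0.72 in wild type and 50.02% ± 1.59 in the knockout. With IFN-γ its share was 11.8% ± 0.38 in wild type and 8.72% ± 0.25 in the knockout. UBE2L6 moved the other way, from 30.1% ± 0.63 to 57.2% ± 0.51 in wild type and from 26.0% ± 1.29 to 51.9% ± 0.81 in the knockout. The share of ISG15 was alike in both genotypes before treatment, 14.2% ± 0.75 and 14.3% ± 0.61, and was 25.9% ± 0.46 in treated wild type and 31.3% ± 1.26 in treated knockout. HERC5, HERC6 and USP18 together stayed the small part of the sum in all groups, each at 5.68% or less on average. These shares are descriptions and were not tested.

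**Figure D4:**
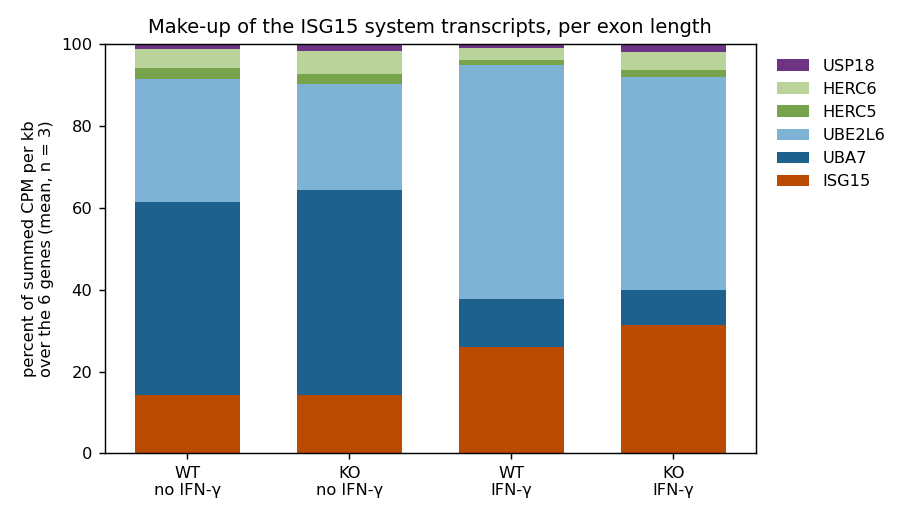
Share of each member in the summed CPM per kilobase of exon over the 6 genes, as the mean of 3 libraries in each group. UBA7 falls from 47.1% to 11.8% of the sum with IFN-γ in wild type and from 50.02% to 8.72% in the knockout, and UBE2L6 takes the largest share in both treated groups.

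Ratios within a library do not depend on library scaling. The ratio of ISG15 to its protease USP18, per exon length, was 11.6 ± 2.40 in untreated wild type, 25.1 ± 2.74 in treated wild type, 8.71 ± 0.64 in untreated knockout and 15.5 ± 1.88 in treated knockout (SD, n = 3). Treated knockout libraries ran from 13.5 to 17.3 and treated wild-type libraries from 22.7 to 28.1, with no overlap between them. The ratio of the neighbouring ligases, HERC6 to HERC5, was lowest in untreated wild type, 1.54 to 1.81, and lay between 2.36 and 2.52 in all libraries of the other groups. The ratio of the E1 to the E2 transcript, UBA7 to UBE2L6, was 1.57 ± 0.06 in untreated wild type and 1.93 ± 0.15 in untreated knockout. With IFN-γ it was 0.206 ± 0.007 and 0.168 ± 0.005. UBE2L6 exceeded ISG15 per exon length in every library, with ratios of 2.13 ± 0.16 and 2.21 ± 0.06 in untreated and treated wild type and 1.82 ± 0.13 and 1.66 ± 0.09 in the knockout.

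Among the 12 libraries, the profiles of the members were compared as the root mean square (RMS) difference of log2(CPM + 1) after centring each gene on its own mean, which is a description with no test. ISG15 and UBE2L6 were the most alike, at 0.176, followed by HERC6 and USP18 at 0.177 and HERC5 and HERC6 at 0.253. UBA7 was at 0.77 to 1.60 from the other members. It was the farthest from ISG15, UBE2L6, HERC6 and USP18, while UBE2L6 was the farthest from HERC5, at 0.967. Of 11435 genes with at least 5 CPM in 1 group, those nearest to ISG15 were ISG20, an exonuclease induced by interferon (RMS 0.106), TYMP, thymidine phosphorylase, and OASL, a relative of the oligoadenylate synthetases. UBE2L6 was nearest to TAGAP (0.076), PARP9 and CD74, the invariant chain of MHC class II. CGAS, the sensor of cytosolic DNA (0.125), LINC00662 and the interleukin-12 receptor gene IL12RB2 were nearest to HERC5. HERC6 was nearest to DAPP1 (0.12), NYNRIN and the deubiquitinase gene CYLD, and USP18 to MUC1 (0.149), KLF5 and NCF1, a subunit of the phagocyte oxidase. UBA7 was nearest to ELMO1 (0.065), RASSF4 and ZNF580. Ranked by Pearson correlation instead, 0 of these 3 genes were among the nearest 3 for any member. The added 1 CPM shrinks the changes of transcripts near that level, such as USP18 (1.8 CPM), ISG20 (1.2) and OASL (0.72) in untreated wild type. Distances without the added 1 CPM were not computed, so the order of near values may depend on it. The libraries share treatment and genotype, which set most of the spread.

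The other genes of the pathway are given by the lists they belong to. Of 10 other ligases and proteases reported for ISG15, 4 were higher and 4 lower in the knockout with IFN-γ (median -0.02). Over all tested genes, 22.9% were called higher and 24.3% lower there. In the difference of responses none of the 10 was higher and 2 were lower, against 7.61% and 7.86% of all tested genes. TRIM25, a ligase reported for ISG15 and better known as an activator of RIG-I, rose with IFN-γ from 85.3 to 432 CPM in wild type and from 139 to 562 CPM in the knockout. It was higher in the knockout by 0.71 (adjusted p = 4.3e-15) without and by 0.38 (adjusted p = 1.6e-09) with IFN-γ on the log2 scale, and its response was smaller there, at -0.33 (SE 0.06, adjusted p = 9.1e-05). UBE2L3, the ubiquitin E2 enzyme most like UBE2L6, rose by only 0.40 (adjusted p = 2.1e-09) in wild type and its responses differed by 0.14 (SE 0.06, adjusted p = 0.14). Among the ubiquitin-like modifiers, 9 of 12 tested were called higher with IFN-γ in wild type and none lower, at a median of 0.14, but by library totals alone 2 were higher and 5 lower, at a median of -0.11. UBD (FAT10), which has a double ubiquitin fold as ISG15 does, had 0 counts in all libraries. The aligner behind the counts is not given, so reads of UBD lost in mapping cannot be told from an absent transcript. Of 8 other E1 enzymes, 2 were higher and 5 lower with IFN-γ in wild type, of 12 other E2 enzymes 8 and 2 (6 and 4 by library totals alone), and of 4 other HERC genes 2 and 2. Over all tested genes, 28.6% were called higher and 27.9% lower in that response. Scaling by library totals alone called 2767 of the 17119 higher and 8260 lower in it. The largest rise among these relatives was 1.502 for UBE2E2, named after its value was seen, against 3.60 for UBE2L6. With IFN-γ the knockout was higher for 4 and lower for 3 of the 12 modifiers, for 1 and 2 of the E1 enzymes, for 4 and 2 of the E2 enzymes and for 2 and 0 of the HERC genes. By library totals alone these were 2 and 4 of the modifiers and 1 and 4 of the E1 enzymes. They were 3 and 4 of the E2 enzymes and 1 and 1 of the HERC genes. In this comparison that scaling called 2887 of all 17119 tested genes higher and 5213 lower.

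**Figure D5:**
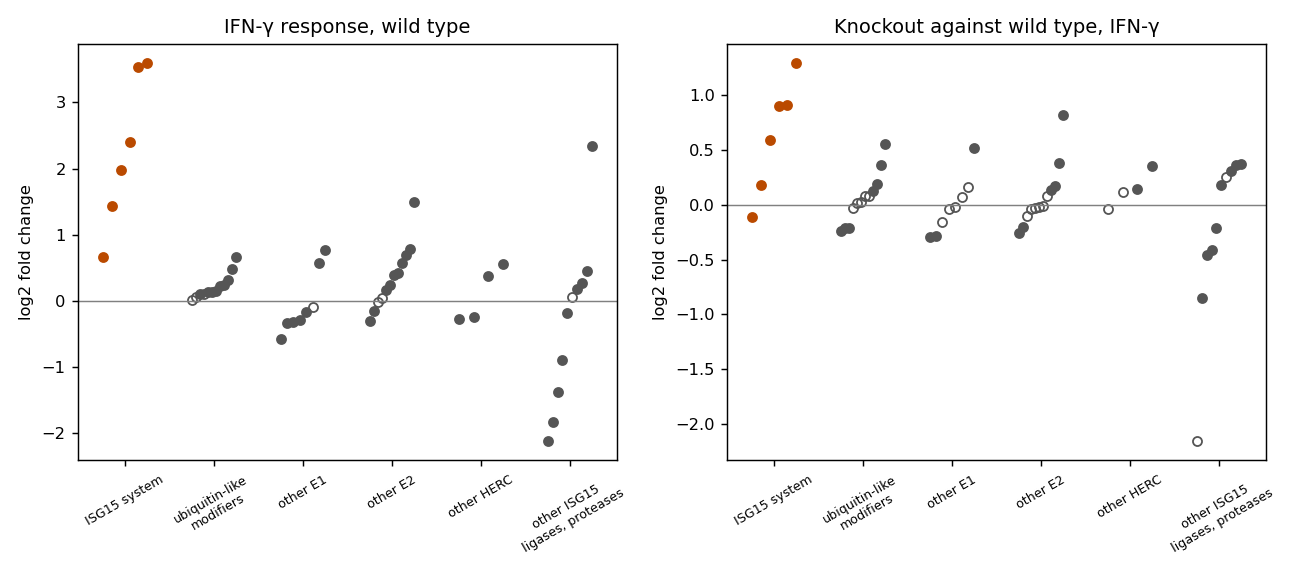
Log2 fold changes of the members and of listed relatives (each point is 1 gene, filled when called at an adjusted p under 0.05): left, the IFN-γ response in wild type; right, knockout against wild type with IFN-γ. Among the other ligases and proteases the highest point on the left is TRIM25 at 2.34, and the lowest point on the right, which is open, is USP41, with at most 5 counts in those libraries.

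Upstream of the system, of 16 transcripts of interferon receptors and their transcription factors, 14 were higher and 1 lower in the knockout without IFN-γ (median 0.45), against 25.4% and 24.8% of all tested genes. With IFN-γ, 12 were higher and 3 lower (median 0.22), against 22.9% and 24.3%. By library totals alone, 12 were higher and 1 lower without IFN-γ (median 0.42) and 9 were higher and 3 lower with it (median 0.14). Of all 17119 tested genes, that scaling called 3869 higher and 4626 lower without IFN-γ, and 2887 and 5213 with it. In the difference of responses, 2 of the 16 were higher and 8 lower, at a median of -0.23, against 7.61% and 7.86%. STAT2, which acts in the type I pathway, was the lower in the knockout with IFN-γ, at 919 against 1114 CPM (log2 fold change -0.28, adjusted p = 6.1e-08), and the difference of its responses was -0.34 (SE 0.05, adjusted p = 8.2e-06). IRF1, the factor that carries much of the IFN-γ signal to its targets, reached 1416 CPM in the knockout and 1211 CPM in wild type, and the difference of its responses was -0.47 (SE 0.05, adjusted p = 7.2e-08). IRF9, the DNA-binding partner of STAT2, was at 10.9 CPM in treated knockout and 10.5 CPM in treated wild type (log2 fold change 0.04, adjusted p = 0.80). Without IFN-γ it was called higher in the knockout (log2 fold change 0.41, adjusted p = 0.042). That call of IRF9 was lost with upper-quartile scaling (adjusted p = 0.052) and by library totals alone (0.065). It shares 48.4% of its exon bases with another annotated gene, so its level is uncertain.

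Interferon transcripts were at or near 0. Of 22 type I, II and III interferon genes, 21 had 0 counts in all 12 libraries and IFNW1 had at most 2 in a library. A count of 0 allows a level of up to 0.0924 to 0.130 CPM, for counting error only and if counts are independent. Mates were counted separately, so a fragment can give 2 counts, and the limit is then higher.

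Among 18 proteins reported as targets of ISG15 conjugation, 11 transcripts were higher and 5 lower in the knockout with IFN-γ (median 0.20). By library totals alone 9 were higher and 6 lower (median 0.12), against 2887 and 5213 of all 17119 tested genes. With TMM scaling the shares over all tested genes were 22.9% and 24.3%. Without IFN-γ, 7 were higher and 4 lower (median 0.14), against 25.4% and 24.8% of all tested genes. MX1, an antiviral GTPase, had the largest difference of the list, with 3.05 CPM in wild type and 12.6 CPM in the knockout when untreated (2.07 on the log2 scale with SE 0.11, adjusted p = 3.3e-16) and 226 and 642 CPM with IFN-γ (1.51 with SE 0.06, adjusted p = 1.6e-20). The difference of its responses was -0.56 (SE 0.13, adjusted p = 0.0024). In the difference of responses, 3 of the 18 were higher and 4 lower (median 0.03), against 7.61% and 7.86% of all tested genes. Of the higher ones, the RNA sensors RIGI and IFIH1, named after their values were seen, were both at 0.60 (adjusted p = 3.9e-06 and 1.1e-07). Of 4 receptor and secretion partners of free ISG15, whose members are also named after their values were seen, ITGB2 and CHMP5 were higher in the knockout with IFN-γ, by 0.57 (adjusted p = 3.6e-16) and 0.30 (adjusted p = 4.5e-07). ITGAL, the other chain of the integrin LFA-1 that free ISG15 binds, was not, at 0.04 (adjusted p = 0.34). Without IFN-γ all 4 partners were called higher in the knockout (median 0.35), and 3 by library totals alone. Over all tested genes 25.4% were called higher there with TMM scaling, and 3869 of 17119 by library totals alone. ITGAL was then at 497 CPM in the knockout and 366 CPM in wild type.

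The genes around each member on its chromosome are given as a description. The median log2 fold change of knockout against wild type was taken over the 20 nearest tested genes, 10 on each side. With IFN-γ it was -0.28 around ISG15, -0.17 around UBA7, -0.06 around UBE2L6, 0.04 around HERC5, -0.07 around HERC6 and 0.05 around USP18. Without IFN-γ the medians were -0.16, 0.02, -0.14, 0.02, -0.13 and 0.19, in the same order. With IFN-γ, where 22.9% of all tested genes were called higher and 24.3% lower, 1 of the 20 genes around UBA7 was higher and 9 were lower, the direction of UBA7 itself. Around USP18, 8 were higher and 1 was lower with IFN-γ. Without IFN-γ, where 25.4% were called higher and 24.8% lower, 11 genes around USP18 were higher and 3 lower, at a median of 0.19, again the direction of the member. ISG15 was higher in the knockout in both conditions, but 1 of its neighbours was higher and 7 lower with IFN-γ, and 1 and 8 without it. Around UBE2L6 these counts were 1 and 4 with IFN-γ, and 2 and 7 without it. Around HERC5 they were 7 and 8, and 6 and 8, and around HERC6 6 and 8, and 4 and 8. UBA7 was higher in the knockout without IFN-γ, where 4 of its neighbours were higher and 4 lower. HERC5 and HERC6 are each among the other's neighbours.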

How the data were processed

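Messenger RNA of 12 libraries of THP-1 cells was sequenced with a stranded kit, per the labels' protocols. The authors deposited whole-number read counts per gene, unnormalized, in 1 table for 58051 Ensembl genes on hg38. Per the file headers, exon reads were counted with featureCounts 2.0.3 from primary alignments of paired reads, mates separately, without chimeric pairs and without a strand option, so overlapping antisense genes cannot be told apart. The submitters' processing notes also name fastp 0.23.2, STAR 2.7.10b, BWA and Picard 2.27.5. Not given in the sources used here were the annotation release and the aligner whose output was counted.

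From the counts, edgeR 4.0.16 (R 4.3.3) fitted a single model to the 12 libraries, with no term other than group, after filterByExpr (17119 genes left) and TMM scaling, by the two-sided quasi-likelihood test. Standard errors are the log2 fold change divided by the root of its F statistic. Promoters came from RefSeq. The fit was tested on simulated counts. Alternatives were DESeq2 1.42.0, limma-voom (limma 3.58.1), RLE, upper-quartile and total scaling, no filter, a filter of 5 CPM in 3 libraries, fits to the compared groups alone, a log2 fold change of at least 1, USP18 and USP41 summed, the replicate number as a block, and each library left out. Depth was 23616738 to 29426415 counts a library. Members, lists and the rule for named genes were chosen with earlier results of these data known. The rule named all members, USP41, TRIM25, STAT2, IRF9, IRF1, UBE2L3, up to 4 genes a list with a called log2 difference of 1 or more between genotypes or responses, and the 3 genes most like each member; 1 gene it named is not reported here.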

Additional observations from a re-analysis of the deposited data

Results flagged for a closer look

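For 5 members, the IFN-γ response itself differed between knockout and wild type by the test of the difference (edgeR's quasi-likelihood test over all genes, adjusted p under 0.05), which is why they are listed here. Over all tested genes, 7.61% were called higher and 7.86% lower in this test. The log2 response of the knockout minus that of wild type was 0.83 for HERC5, 0.59 for USP18 and 0.31 for HERC6. It was 0.29 for ISG15 and -0.50 for UBA7. The call of ISG15 held in only 12 of 21 alternatives and that of USP18 in 13 of 21. Groups of 3 libraries were too small for a search for outlying libraries.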

How the results depend on the processing

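Of 654 values of single members under the alternatives, 627 kept their direction and side of the threshold, 25 lost a call, 1 gained a call and 1 reversed. The reversed value was the IFN-γ response of UBA7 in the knockout, -0.12 by library totals alone, where the number of members called lower in that response became 1. Over all genes, that scaling called 2767 higher and 8260 lower in the wild-type response (4896 and 4770 with TMM) and 2787 and 9141 in the knockout response (5005 and 5451). With a log2 fold change of at least 1 required as well, 1 member was called higher in the knockout with IFN-γ and 0 lower, 0 were called higher without IFN-γ, and 0 were called higher and 0 lower in the difference of responses. Members called lower with IFN-γ were 0 with DESeq2, RLE size factors or no low-count filter, and 0 to 1 with a library left out. Members called higher in the difference of responses were 2 by limma-voom, 2 by library totals alone and 2 to 4 with a library left out. The cause was not tested. Replicate numbers gave no pairing of the libraries: of 18 correlations of same-numbered libraries' deviations between groups, from -0.196 to 0.245, 2 were over 0.1. With the replicate number as a block, 5 members were higher and 1 lower in the knockout with IFN-γ, and no member's call changed in any comparison. Depth limits USP18 most, with 47 to 63 counts in untreated wild type, and USP41, with at most 17. Library scaling limits small responses such as that of UBA7 in the knockout. The ranking of genes most like a member depends on the measure, since 0 of 3 genes were shared with a ranking by Pearson correlation for each of the 6 members.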
